A study of Mus musculus with 4 samples.

Results

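Oxidative phosphorylation is carried by 5 complexes of the mitochondrial inner membrane, and the nuclear genes for their subunits were read here in mouse hippocampal area CA1 at 4 times after foot shock. Members were all probe sets with a single gene symbol that starts with Nduf, Uqcr, Atp5 or Cox4 to Cox8, or that is Sdha, Sdhb, Sdhc, Sdhd, Cyc1 or Cycs. This rule uses names alone and no measured value. It gave 73 genes, out of 8251 genes named singly on the array, with 101 of its 12422 probe sets other than controls. Another 10 probe sets matched only through one of several symbols and were left out. The members fall into complex I (42 probe sets, 31 genes), complex II (4 and 4), complex III (9 and 8), complex IV (23 and 15), complex V (22 and 14) and cytochrome c itself, Cycs (1 probe set).

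All 4 samples came from young male C57BL/6J mice that were given 3 foot shocks of 0.5 mA, each lasting 1 s, 2 min apart. The labels call this condition shock alone. Per the labels every group had been put in the chamber 2 h ahead of the procedure and stayed there for 1 h after the last shock. Total RNA was taken 1, 2, 4 or 6 h after that shock, and each time has 1 Affymetrix MG-U74Av2 array. The labels do not say whether animals were pooled. Mice without shock were not analysed here, so a time can be set only against the other times. No replicate measures the spread at a time, so no test was possible and none of the differences below carries a p-value. Each gene is read by 1 or more probe sets of short oligonucleotides. The intensity of a probe set depends on their sequence, so intensities are compared between arrays and not between probe sets.

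Complex I takes electrons from NADH and complex II takes them from succinate, and both pass them to ubiquinone. Complex III moves them on to cytochrome c, and complex IV hands them to oxygen. Complexes I, III and IV pump protons, and complex V, the ATP synthase, uses the gradient to make ATP. Neurons depend on this pathway for most of the ATP that ion pumping and synaptic transmission consume. The core subunits encoded by the mitochondrial genome are not among the members.

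Some promoters of these genes hold short motifs that the rule did not use. RefSeq windows (GRCm38.p6), 250 bases before to 50 after the transcription start, were at hand for 59 of the 73 genes, 64 windows in all. They were searched on both strands, and none of the motifs was tested for enrichment. The motif of the factor NRF1, which is known to act on many respiratory genes, was taken as GCGC and TGCGC separated by 1 base. It was found in 13 of 64 windows (20.3%), against 6.38% of the 21263 windows of all protein-coding genes. The ETS-type motif CCGGAAG was found in 25% against 11.6%, the YY1 motif AAGATGGC in 12.5% against 3.05%, and ACTACA and TCCC separated by 2 bases in 10.9% against 2.54%. In all, 36 of 59 genes had at least 1 of the 4. That combined share was not counted over all protein-coding genes. Of those genes 7.17%, 12.9%, 3.57% and 2.92% held the single motifs, in the order given. The NRF1 motif was present in genes of each complex, and the stretches below, which show it across complexes, run 5′ to 3′ on the gene's strand with the match in capitals. The match lies on the opposite strand for Sdha, Sdhd and Atp5c1, whose capitals show its reverse complement.
Ndufa8 (chr2:36049349-36049378, minus strand): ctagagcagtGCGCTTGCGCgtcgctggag
Sdha (chr13:74350319-74350348, minus strand): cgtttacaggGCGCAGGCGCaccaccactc
Sdhd (chr9:50603909-50603938, minus strand): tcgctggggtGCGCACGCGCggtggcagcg
Uqcrc1 (chr9:108936643-108936672, plus strand): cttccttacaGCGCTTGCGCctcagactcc
Cox6a1 (chr5:115349101-115349130, minus strand): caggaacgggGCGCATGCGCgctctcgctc
Atp5c1 (chr2:10080430-10080459, minus strand): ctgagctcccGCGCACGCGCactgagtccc
Atp5o (chr16:91931602-91931631, minus strand): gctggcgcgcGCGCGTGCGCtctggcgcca

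The arrays had all been brought to 1 overall level before deposit, with a trimmed mean of 500.3 intensity units on each. A floor of 100.8 units, the 40th percentile of all values, was used as a lower limit, and 7296 to 7704 probe sets per array lay above it. Of the 9 markers listed for CA1 pyramidal and hippocampal neurons, 6 were on the array, and none of their 8 probe sets was listed at 0. Their summed intensity was 7899, 8627, 10343 and 10202 units at 1, 2, 4 and 6 h, and Camk2a exceeded the floor on 1 probe set at 1 h alone, with 109.9 units. The array at 2 h stood apart in RNA quality, with a 3′ to 5′ signal ratio for actin of 2.70, against 1.74 to 1.84 on the others. The array at 6 h stood apart in choroid plexus markers, of which 5 of 11 listed genes were on the array and none was at 0. Their summed intensity was 1727, 1371, 1951 and 7785 units at 1, 2, 4 and 6 h, and Ttr, the transthyretin of that tissue, read 110.5, 89.9, 198 and 4482 units at those times. In tissue RNA, fewer cells of a type and less RNA per cell cannot be told apart.

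The subunits were among the bright features of the array. By mean intensity over the 4 arrays, 72 of the 101 probe sets (71.3%) lay at or above the median of all probe sets, 60 (59.4%) at or above the 75th percentile, and 51 (50.5%) at or above the 90th percentile, which was 1525 units. Above the floor on all 4 arrays were 75 probe sets, another 8 were above it on some arrays, and 18 were below it on all. Per gene, 65 of 73 had at least 1 probe set above the floor on all arrays. The 5 genes with no probe set above it on any array were Cox5a, Cox7a1, Cox8a, Ndufa12 and Ndufc2, while Ndufa1, Cox6b2 and Atp5j2 were above it on some arrays only. Cox5a, a subunit of complex IV used in all tissues, had readings of 93.3, 95.9, 27.6 and 66.9 units at 1, 2, 4 and 6 h on one probe set. Probe sets at such readings give no level for the gene.

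The subunits differed little among the 4 times. The ratio of the highest array to the lowest had a median of 1.20 over the 75 member probe sets above the floor on all arrays, against 1.32 over the 6442 such probe sets of the whole array. A ratio of 1.5 or more was reached by 7 of 75 members (9.33%), against 27.9% of all probe sets. Brightness goes with this narrow range, since the same median over all probe sets was 1.24 at a mean of 500 units or more and 1.18 at a mean of 2000 units or more. Among probe sets with a mean of at least 500 units, 2 of 63 members (3.17%) reached a ratio of 1.5, against 12.4% of all. At a mean of at least 2000 units the members' share was 2 of 46 (4.35%), against 4.27% of all, so among the brightest probe sets the share of subunits was near that of the whole array.

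**Figure D1:**
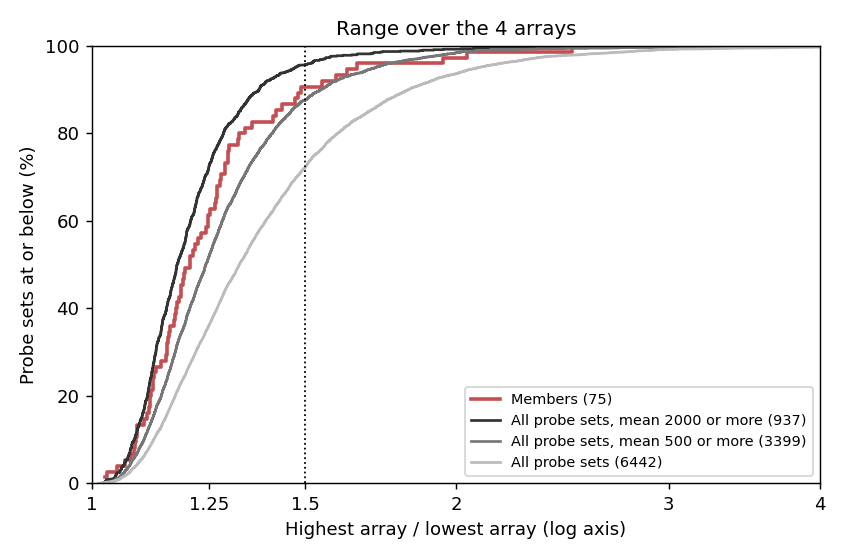
Ratio of the highest to the lowest array for each probe set above the floor on all 4 arrays (x axis, log scale), as the cumulative percentage of probe sets (y axis), for the members and for all probe sets at 3 limits of mean intensity. The members' line lies left of that for all 6442 probe sets and close to that for the 937 probe sets with a mean of at least 2000 units. The dotted line marks 1.5.

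The spread between pairs of arrays also goes with brightness. The robust SD of log2 differences, which is a spread that ignores extreme probe sets, ran from 0.18 to 0.23 for the 75 members, against 0.26 to 0.31 for the 6442 probe sets. Both were widest between 6 h and 2 h. At a mean of at least 2000 units it ran from 0.12 to 0.22 for members, against 0.15 to 0.20 for all, and the members spread more in 2 of the 6 pairs of times. Median log2 differences of the members between a later and an earlier time lay between -0.06 (4 h against 2 h) and 0.03. The 7 members at or past a ratio of 1.5 were Atp5pb (2.50), Cox4i1 (2.04), Cyc1 (1.95), Ndufb3 (1.66), Ndufs4 (1.62), Atp5g1 (1.59) and Cox6b1 (1.55). Just below the limit were Cox6a2 (1.49), Cox8b (1.48), Ndufa3 (1.47) and Atp5k (1.44).

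Standing apart means a reading at 1 time at least 1.5-fold above, or below, each other array. Of the 75 members 1 (1.33%) did so, against 6.3% of all 6442 probe sets. This share too goes with brightness. With a mean of at least 500 units, 73 of 3399 probe sets stood apart and 0 of 63 members. With a mean of at least 2000 units, 7 of 937 probe sets did and 0 of 46 members. The member standing apart was Atp5pb, which encodes subunit b of the ATP synthase, part of the peripheral stalk that holds the catalytic head still. Atp5pb read 297 (1 h), 461.5 (2 h), 392 (4 h) and 185 units (6 h). The reading at 6 h was the lowest, and the next lowest array was 1.61-fold above it. Over the whole array 1.16% of probe sets were lower at 6 h by this rule. Atp5pb has no other probe set here with which to repeat the reading.

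Of the 7 genes listed above at or past the ratio limit, 5 were searched, all but Cox4i1 and Cyc1. Among these 5, Atp5pb and Ndufs4 carried the YY1 motif, and Cox6b1 carried the ETS-type motif. The YY1 motif was found in 8 of the 59 member genes searched (13.6%), against 3.57% of all protein-coding genes. The 7 genes were picked by their measured range, and a link between motif and range was not tested. The YY1 matches are shown in capitals, as the reverse complement for Atp5pb.
Atp5pb (chr3:105959248-105959277, minus strand): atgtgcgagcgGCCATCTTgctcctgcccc
Ndufs4 (chr13:114388045-114388074, minus strand): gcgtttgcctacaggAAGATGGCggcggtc

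For all members together, the median log2 difference of a time from the mean of the other 3 times was -0.01, 0.02, -0.03 and 0.02 at 1, 2, 4 and 6 h. The 76 probe sets counted here had means over the floor. Members above the other times numbered 35, 42, 33 and 44 of 76 in that order of times (46.1%, 55.3%, 43.4% and 57.9%). The shares of all probe sets with means over the floor were 52.4%, 52.7%, 48.2% and 48.4%. Over all 7427 probe sets so chosen the medians were 0.01, 0.02, -0.01 and -0.01. Scaled to a common median instead, they were -0.05, -0.07, 0.02 and 0.09 for the members and -0.02, -0.07, 0.04 and 0.06 for all probe sets, so the sign of a median this near 0 turns with the scaling. The array at 2 h held the highest reading for 27 of 76 members (35.5%) and for 29.7% of all probe sets. The part of RNA quality in that count was not tested.

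**Figure D2:**
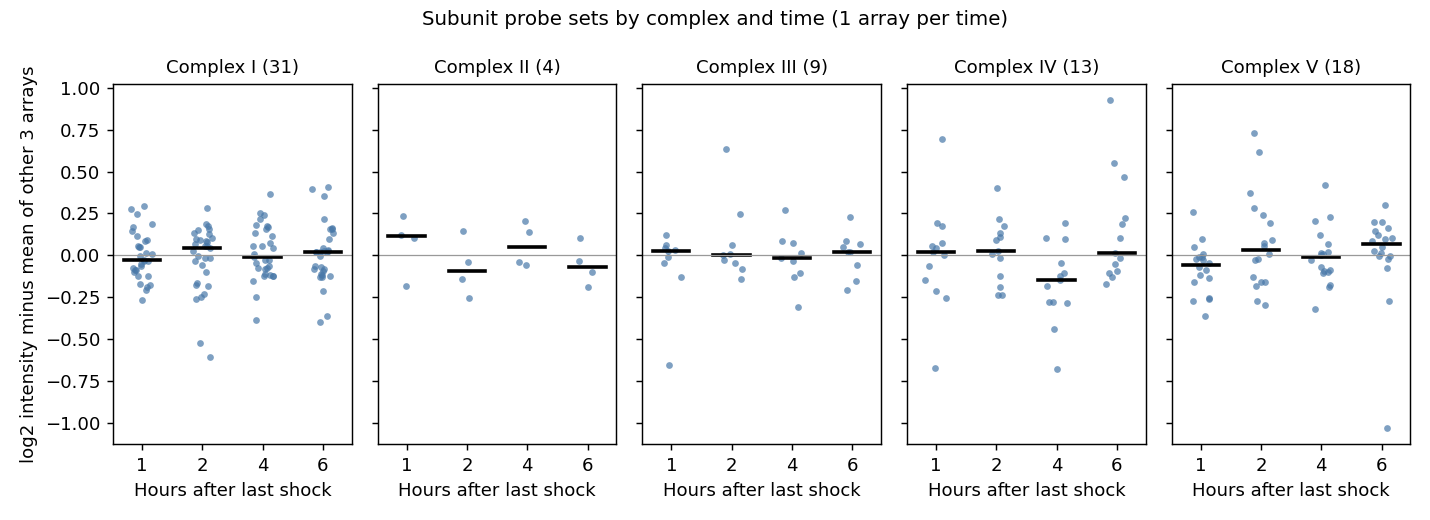
Log2 intensity at each time minus the mean of the other 3 arrays (y axis) for each member probe set with a mean above the floor, by complex and by hours after the last shock (x axis). Points are probe sets, black bars are medians, and the number of probe sets is in each panel's title. Most points lie near 0, the complex IV median lies at -0.15 at 4 h, and the lowest point of complex V at 6 h is Atp5pb.

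In complex I the medians were -0.03, 0.04, -0.01 and 0.02 at 1, 2, 4 and 6 h over 31 probe sets, 2 of which had a ratio of 1.5 or more. With common-median scaling those at 2 and 4 h were -0.04 and 0.04. The NADH-binding subunit Ndufv1 read 3822, 4004, 3591 and 4169 units at 1, 2, 4 and 6 h, and the highest array was 1.16-fold above the lowest. Ndufs1, the largest iron-sulfur subunit, read 2102 (1 h), 2116 (2 h), 2533 (4 h) and 2503 units (6 h). The later times were the higher ones for Ndufs1, with 2533 and 2503 units at 4 and 6 h against 2102 and 2116 units at 1 and 2 h. Ndufv2, another iron-sulfur subunit, was likewise lowest at 1 h on its brighter probe set, which read 3853, 4216.5, 4801 and 4360.5 units at 1, 2, 4 and 6 h. Its dimmer probe set was lowest at 2 h, with 502 (1 h), 424 (2 h), 504 (4 h) and 436.5 units (6 h). The arrays therefore ordered differently on the pair.

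The widest range in complex I was that of Ndufb3, an accessory subunit of the membrane arm, which read 3723, 2600.5, 4309.8 and 3877 units at 1, 2, 4 and 6 h. The array at 2 h was the low one. Ndufs4, an accessory subunit whose loss causes fatal encephalopathy in mice, was also lowest at 2 h, with readings of 163 (1 h), 128 (2 h), 184.5 (4 h) and 208 units (6 h). Ndufa3, a small membrane-arm subunit, read 262, 196, 184 and 271 units at 1, 2, 4 and 6 h on a dim probe set with a ratio of 1.47. Its bright probe set read 5491 (1 h), 5664 (2 h), 5949 (4 h) and 5784.5 units (6 h), a ratio of 1.08. The dim one was higher at 6 h and 1 h than at the other 2 times, and the bright one was not. Among members that the pattern of names also takes in, the assembly factor Ndufaf1 read 497, 542, 563 and 701 units at 1, 2, 4 and 6 h, with the highest array 1.41-fold above the lowest. Ndufb7, an accessory subunit on the intermembrane side, went the other way, with 4395 (1 h), 3937 (2 h), 3912.5 (4 h) and 3097 units (6 h). The remaining complex I probe sets above the floor on all arrays had ratios of 1.05 to 1.32.

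Complex II, succinate dehydrogenase, has 4 subunits, and all 4 were above the floor on every array. Its medians were 0.11, -0.09, 0.05 and -0.07 at 1, 2, 4 and 6 h. The flavoprotein Sdha read 541, 476, 550.3 and 486 units at 1, 2, 4 and 6 h, and the membrane anchor Sdhd read 4247 (1 h), 3296 (2 h), 4179 (4 h) and 3409 units (6 h). Both were higher at 1 and 4 h than at 2 and 6 h. Sdhc, the other anchor, had the opposite order, with 2460.1, 2916, 2626 and 2854 units at 1, 2, 4 and 6 h. The iron-sulfur subunit Sdhb was highest at 1 h and then level, with 5449 (1 h), 5004 (2 h), 5003 (4 h) and 5020.0 units (6 h). Ratios were 1.29 for Sdhd, 1.19 for Sdhc, 1.16 for Sdha and 1.09 for Sdhb, none near 1.5. With each array scaled to a common median instead, the median at 6 h was 0.00.

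Complex III had the lowest median ratio of the 5 complexes, 1.12 over 9 probe sets, with medians of 0.02, 0.00, -0.02 and 0.02 at 1, 2, 4 and 6 h. The median ratio was 1.19 in complex I, 1.17 in complex II, 1.24 in complex IV and 1.26 in complex V. Brightness differed too, with a median mean intensity of 5240 units in complex III, 3672 in I, 3248 in II, 2980 in V and 1459 in IV. The part of brightness in these ratios was not tested. Uqcrq, a small accessory subunit, read 10236, 9959.9, 10028 and 10217 units at 1, 2, 4 and 6 h, a ratio of 1.03. Of the 2 large core subunits, Uqcrc1 read 2489.7 (1 h), 2287 (2 h), 1994 (4 h) and 2638 units (6 h) and was lowest at 4 h. Uqcrc2 read 7837, 9125, 8089 and 7209.6 units at 1, 2, 4 and 6 h and was highest at 2 h. Cytochrome c1, encoded by Cyc1, had a bright probe set with 12136 (1 h), 12327 (2 h), 11309 (4 h) and 12074 units (6 h). A second Cyc1 probe set gave 2689, 5249, 3705.5 and 3878 units at 1, 2, 4 and 6 h, where 2 h was 1.95-fold above 1 h. The 2 probe sets of Cyc1 thus disagreed most at 1 h, by 0.51 on the log2 scale, and the ratio on the bright one was 1.09. Cycs, the mobile carrier between complexes III and IV, read 663 (1 h), 697 (2 h), 597 (4 h) and 680.4 units (6 h), lowest at 4 h. The small subunits Uqcr10, Uqcr11 and Uqcrh had ratios of 1.09 to 1.12, and Uqcrb read 1771, 1901, 2177 and 1746 units at 1, 2, 4 and 6 h, highest at 4 h. With common-median scaling the complex III medians at 1, 2 and 4 h were -0.01, -0.08 and 0.03.

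In complex IV, cytochrome c oxidase, most probe sets were lower at 4 h. The median at 4 h was -0.15 over 13 probe sets, of which 10 were below the mean of the other times and 3 above. Its other medians were 0.02 at 1 h, 0.03 at 2 h and 0.01 at 6 h. Over all 7427 probe sets 51.8% were below the other times at 4 h. The shift was -0.10 under common-median scaling, -0.11 under quantile normalization and -0.20 with the array at 2 h left out. With the array at 6 h left out it was -0.14, and 5 of 13 were above. Set directly against 4 h, the readings at 6 h were higher for 7 and lower for 5 of the 12 probe sets above the floor on all arrays. Without Cox6a2, Cox6b2, Cox8b and Cox8c, whose expression is known mainly from muscle or testis, the shift was -0.10. The median at 2 h was -0.07 and that at 1 h -0.02 under common-median scaling. The summed CA1 markers were highest at 4 h, and their part in the shift was not tested.

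Among those below the other times at 4 h were subunits used in all tissues. Cox6a1 read 27147 (1 h), 28594 (2 h), 24516 (4 h) and 24418 units (6 h), so both later times were below both earlier ones. Cox5b, the zinc-binding subunit, read 8097, 8367, 7493 and 7686 units at 1, 2, 4 and 6 h, and Cox7a2 read 10049 (1 h), 9124 (2 h), 8256 (4 h) and 9001 units (6 h). Both were lowest at 4 h. Cox6b1, which lies at the contact between the 2 enzymes of a dimer, read 216, 275, 177.5 and 235 units at 1, 2, 4 and 6 h, also lowest at 4 h. Cox6c read 14192 (1 h), 15167 (2 h), 13846 (4 h) and 13503 units (6 h), a ratio of 1.12 with 6 h the lowest. Against this direction, Cox7b read 3279, 3967, 3721 and 3240.5 units at 1, 2, 4 and 6 h. Cox7a2l, which the pattern of names also takes in, was above the other times at 4 h. It read 1708 (1 h), 1831 (2 h), 2158 (4 h) and 2152 units (6 h). Cox4i1, the largest nuclear subunit, gave 2 readings that part at 4 h. Its dimmer probe set had 216, 133, 106 and 169 units at 1, 2, 4 and 6 h, with 4 h close to the floor, while its brighter one had 550.0 (1 h), 539.6 (2 h), 574 (4 h) and 514 units (6 h), with 4 h the highest.

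Several complex IV subunits come in tissue forms, and those known mainly from muscle or testis were highest at 6 h where they could be read, except Cox8c. Of the 13 complex IV probe sets with a mean above the floor, 3 (23.1%) were highest at 6 h, against 22.9% of all probe sets. They were those of Cox6a2, Cox6b2 and Cox8b. Cox6a2, the heart and skeletal muscle form, read 363, 368, 376 and 540.5 units at 1, 2, 4 and 6 h, so 6 h was 1.44-fold above the next array and the other 3 lay close together. Cox8b, another muscle form, read 321 (1 h), 275 (2 h), 268 (4 h) and 397 units (6 h) on one probe set. On its second probe set it read 47.7, 52.9, 34.6 and 106 units at 1, 2, 4 and 6 h, above the floor at 6 h alone. Cox6b2, the testis form, read 63.3 (1 h), 145 (2 h), 124 (4 h) and 231.5 units (6 h) on 1 of 3 probe sets. At 1 h it lay below the floor, so 6 h was at least 2.30-fold higher. The other 2 probe sets of Cox6b2 never exceeded the floor, nor did that of Cox7a1, a further muscle form. Cox8c, the other testis form, did not share this order, with 1043, 998, 822 and 959 units at 1, 2, 4 and 6 h.

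The summed skeletal muscle markers were highest at 2 h. Their 12 probe sets for 8 of 8 listed genes summed to 990, 1326, 910 and 986 units at 1, 2, 4 and 6 h. Single probe sets differed, since Ckm, the muscle creatine kinase, read 130 (1 h), 162 (2 h), 37.3 (4 h) and 181.5 units (6 h), and Actn3 read 29.3, 110.8, 65.0 and 169 units, both highest at 6 h on the brighter of their 2 probe sets. Myh4, a muscle myosin, read 205, 354, 175 and 112 units on its brighter probe set and made up much of the peak at 2 h. The 5 probe sets for 4 heart markers summed to 652, 908, 663 and 731 units at those times. No marker of either list was at 0, but Myh1, Tnni2, Tnnt3 and the heart marker Myh6 never exceeded the floor. Tnnt2 of the heart list exceeded it at 2 h alone, with 111.7 units. The choroid plexus sum given above was highest at 6 h along with these isoforms, and the part of these markers in their readings was not tested.

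**Figure D3:**
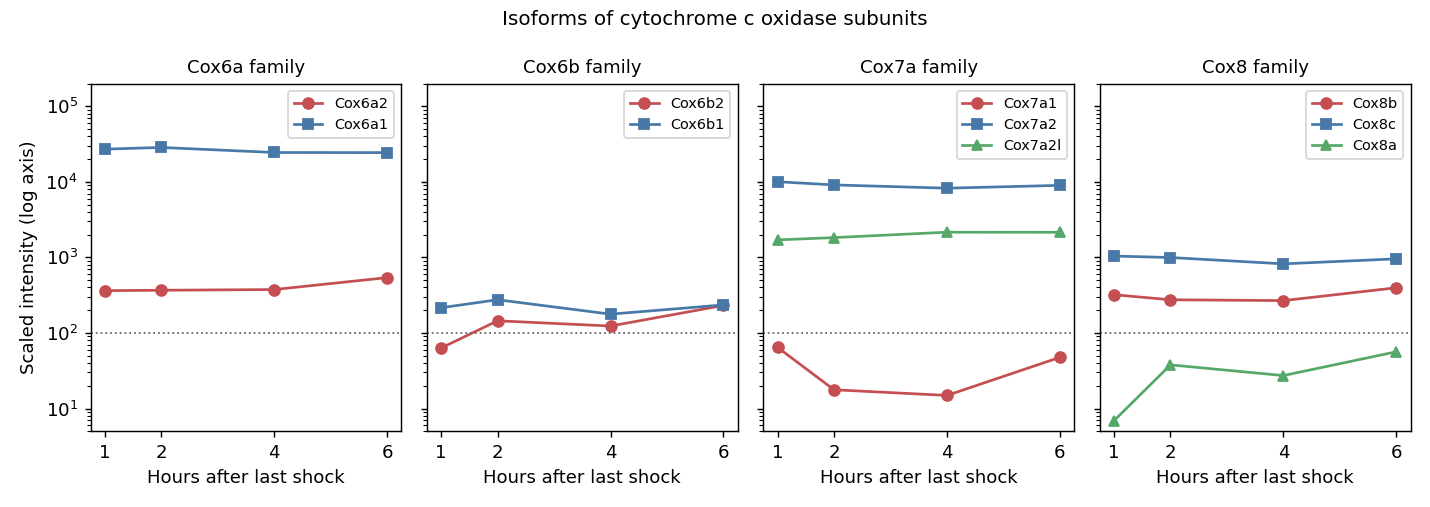
Scaled intensity (y axis, log scale) by hours after the last shock (x axis) for the isoforms of 4 subunit families of complex IV, 1 probe set per gene, with the floor as a dotted line. Cox6a2, Cox6b2 and Cox8b are highest at 6 h, while Cox6a1, Cox7a2 and Cox8c are not. Heights of different probe sets do not compare transcript levels.

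Complex V was lowest at 1 h and highest at 6 h by median, with -0.06, 0.03, -0.01 and 0.07 at 1, 2, 4 and 6 h over 18 probe sets. Single arrays moved these values, since the median at 1 h was -0.03 with 8 of 18 above when 6 h was left out, and that at 6 h was 0.12 when 2 h was left out. With all arrays, at 1 h 14 of 18 were below the other times, against 47.6% of all probe sets. Set directly against 1 h, the readings at 6 h were higher for 14 of 18 with a median log2 difference of 0.08, against 48% of all probe sets. At 6 h 12 of 18 were above the other times, against 48.4% of all probe sets. The median there was 0.14 under common-median scaling, which put that of all probe sets at 0.06. Under quantile normalization it was 0.09, against 0.01 for all probe sets. The medians at 2 and 4 h were -0.05 and 0.04 under common-median scaling, opposite in sign to those given first. In the peripheral stalk, Atp5o, the subunit at its tip, read 4379 (1 h), 4169 (2 h), 4531 (4 h) and 5367 units (6 h), and Atp5j, coupling factor 6, read 4479.5, 4246, 4554 and 4897 units at 1, 2, 4 and 6 h. Both were highest at 6 h, the time at which Atp5pb of the same stalk was lowest.

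In the catalytic head, Atp5a1, the alpha subunit, read 10859 (1 h), 11612.5 (2 h), 10681 (4 h) and 11995 units (6 h). Atp5c1, the gamma subunit that turns inside the head, read 4321, 3527, 4115 and 4567 units at 1, 2, 4 and 6 h on one probe set and 8293 (1 h), 8279.8 (2 h), 8480.4 (4 h) and 8487 units (6 h) on another. The first was low at 2 h and the second was level. Atp5e, the epsilon subunit, was also lowest at 2 h, with 4404, 3799.6, 4538 and 4854 units at 1, 2, 4 and 6 h. For Atp5d, the delta subunit, 4 probe sets above the floor on all arrays had ratios of 1.16 to 1.27 and did not order the times alike, since 1 was highest at 1 h, 1 at 2 h and the other pair at 4 h.

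The ring of c subunits, through which protons pass, is encoded by several genes with the same mature protein, of which Atp5g1 and Atp5g2 were on the array. Atp5g1 read 195 (1 h), 231 (2 h), 211 (4 h) and 201 units (6 h), and on a second probe set 102, 162, 112 and 102 units at 1, 2, 4 and 6 h. Both were highest at 2 h. Atp5g2 was highest at 2 h too, with 526 (1 h), 703 (2 h), 578 (4 h) and 633 units (6 h). Its dimmer probe set was above the floor at 1 h alone. Among the small membrane subunits, Atp5k, which helps pair the enzyme into dimers, read 505, 628, 437.5 and 515 units at 1, 2, 4 and 6 h, highest at 2 h. Atp5mpl, another of them, read 4442.5 (1 h), 5277 (2 h), 6028.5 (4 h) and 5842 units (6 h), where 1 h was the low array. Atp5l and Atp5md had ratios of 1.06 and 1.15. Ndufa4, Uqcrfs1, Cox4i2, Atp5b and Atp5g3 were not analysed here.

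**Figure D4:**
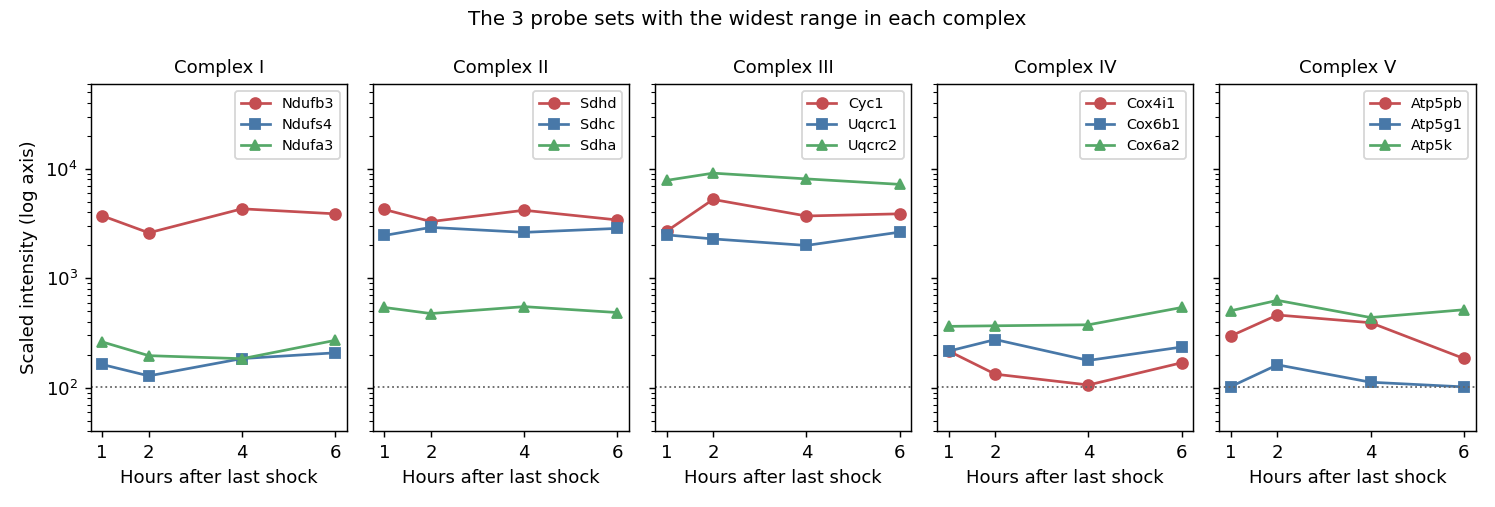
Scaled intensity (y axis, log scale) by hours after the last shock (x axis) for the 3 probe sets with the highest ratio of highest to lowest array in each complex. Atp5pb at 6 h is the only reading at least 1.5-fold below, or above, each other array of its probe set, and Ndufb3, Ndufs4 and Sdhd are lowest at 2 h. The dotted line is the floor.

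Different probe sets for 1 gene gave a check on how far small differences can be read. Of 21 genes with several probe sets, 8 had at least 2 above the floor on all arrays, which made 13 pairs. Each pair was compared in direction over the 6 pairs of times, which share arrays and so are not independent. Of 78 directions 41 were shared, near an even split, and probe set pairs of genes outside the members were not counted. Atp5d weighs most in this count, since its probe sets made several of the pairs, which shared 1 to 4 of 6 directions each. Every other gene made 1 pair, with 2 to 5 of 6 shared. For Atp5c1, Atp5g1 and Ndufb2 5 of 6 were shared, and for Cox4i1 and Ndufa3 2 of 6. The disagreement was largest for Cox4i1 at 4 h, 0.59 on the log2 scale. Of the 7 members with a ratio of 1.5 or more, Cox4i1, Cyc1 and Atp5g1 had a second probe set above the floor, with ratios of 1.12, 1.09 and 1.18. Atp5pb, Ndufb3, Ndufs4 and Cox6b1 had none. The other 13 genes with several probe sets had at most 1 above the floor on all arrays, and were Ndufa1, Ndufaf1, Ndufaf4, Ndufb6, Ndufb7, Ndufb10, Cox5a, Cox6b2, Cox6c, Cox8b, Cox8c, Atp5g2 and Atp5l.

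Of the genes printed above for NRF1, Sdhd was highest at 1 h and Sdha at 4 h. Ndufa8 and Cox6a1 were highest at 2 h, and Uqcrc1, Atp5c1 and Atp5o at 6 h. Atp5pb was highest at 2 h and Ndufs4 was lowest there. A match is a run of letters in a window and not a site shown to be bound.

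The median of some other mitochondrial lists at 6 h lay further from 0 than that of the subunits. For pyruvate dehydrogenase and the citric acid cycle, which feed electrons to the chain, 18 of 21 probe sets had a mean above the floor. Their medians were -0.02, -0.13, -0.02 and 0.17 at 1, 2, 4 and 6 h, and 16 of 18 were above the other times at 6 h, against 44 of 76 subunits and 48.4% of all probe sets. Without the array at 2 h the 6 h median was 0.11, with 15 of 18 above. Mdh2, malate dehydrogenase, read 6849, 6697, 7598 and 7892 units at the 4 times, and Dld, the shared dehydrogenase subunit, read 1887.5, 1503, 1971.5 and 2279. For carriers and porins, which move ATP, phosphate and metabolites across the membranes, the median at 6 h was 0.20 over 8 probe sets. One of them, for Slc25a3, passed the limit on the mean only through its reading of 247 units at 6 h. Over the 6 above the floor on all arrays the median was 0.10, and 4 were above the other times. Among them Slc25a4, the main ADP/ATP carrier, read 15518, 15118, 15691.5 and 14832 units and was lowest at 6 h.

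Other lists stayed closer to the subunits. Assembly and insertion factors (10 probe sets) had medians of -0.05, 0.06, 0.00 and -0.02 at 1, 2, 4 and 6 h. The mitochondrial ribosome (65 probe sets) had 0.04, -0.03, -0.02 and 0.00, and glycolysis (16 probe sets) had 0.06, 0.05, -0.07 and 0.00. Regulators of mitochondrial biogenesis (9 probe sets) had -0.03, 0.04, 0.10 and -0.07. Among these, Ppargc1a, the coactivator PGC-1alpha, read 293, 337, 221 and 125 units, a ratio of 2.70. The lowest reading, at 6 h, was not far above the floor of 100.8 units. The list's median ratio was 1.26 over the 8 regulator probe sets above the floor on all arrays. At 6 h 3 of the 9 were above the other times, against 48.4% of all probe sets. Counts for these lists carry no test, and the difference between a list and the subunits was not tested.

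**Figure D5:**
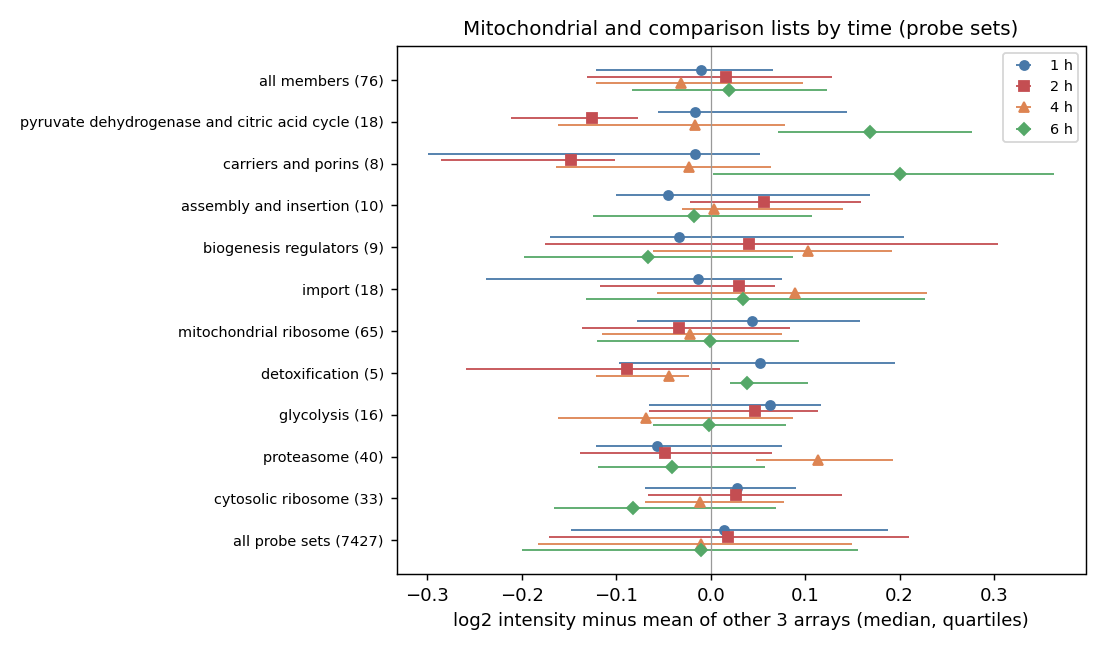
Median and quartiles over probe sets of the log2 intensity at each time minus the mean of the other 3 arrays (x axis), for the members, other mitochondrial lists, comparison lists and all probe sets (y axis, number of probe sets in brackets). The citric acid cycle and carrier lists lie right of 0 at 6 h, with medians of 0.17 and 0.20 (0.10 for carriers above the floor on all arrays), while the members' medians lie between -0.03 and 0.02 at every time.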

How the data were processed

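Total RNA of mouse CA1 hippocampus was read on 4 arrays, 1 for each time. The deposited table holds a linear intensity per probe set, and the software the authors used is not given in the sources. Nothing says that animals were separate or pooled, and 1 array per time limits precision. Genes were named from the platform annotation. Of the probe sets other than the 66 controls, 10833 had 1 symbol, 396 had several and 1193 had none. All 101 members were found in RefSeq and 0 symbols changed.

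Each array was scaled to a common 2% trimmed mean, floored at 100.8 units and log2 transformed. Printed intensities are the scaled values before the floor. Ratios use the 6442 probe sets above the floor on all arrays, and medians those with a mean above it. Genes were named by rule: the 3 widest ranges in each complex, members standing apart, a fixed set of core subunits, isoform families, genes with several probe sets and genes below the floor. Cox7b, Atp5e, Atp5j, Atp5md, Atp5mpl and the small Uqcr subunits, and genes outside the members, were picked once values had been seen. The members, rules and lists were chosen with earlier results of these data known. Alternatives were other scalings, floors, fold limits, probe set choices and arrays left out. The steps were tested on simulated data. Tools were pandas 2.3.3 and NumPy 2.4.6 under Python 3.11.15, with figures from matplotlib 3.10.9. Coordinates are RefSeq's.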

Additional observations from a re-analysis of the deposited data

How the results depend on the processing

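No paired analysis was possible because each time has 1 array. Of 272 alternative medians for the members and the complexes, 271 lay within 0.1 on the log2 scale of the value reported. The exception was complex IV at 6 h, where the mean over its probe sets was 0.15 in place of a median of 0.01. The sign changed in 33, and in 0 where the reported median was 0.1 or more in size. Common-median scaling shifted all probe sets by a median of 0.12 between 6 h and 2 h. The counts depend on the floor and the limit. Standing apart were 1 member as reported, 5 with the floor at the 20th percentile, 0 at the 60th, 8 at a lower fold limit, 0 at 2-fold and 0 at a mean of at least 500 units. A range of the reported size was reached by 7 members as reported, 14 with the floor at the 20th percentile, 2 at the 60th, 29 at the lower limit and 2 at 2-fold. The 1.5-fold range was reached by 4 among plain probe sets and 4 with 1 probe set per gene. At a mean of at least 500 units 2 members reached it, against 12.4% of all probe sets. At a mean of at least 2000 units, a limit chosen after seeing the data, 2 did, against 4.27%. Counts without a share show how the count moves with the setting, not how the subunits compare with all probe sets. Of 48 alternatives for single ranges 4 moved, all on another probe set of the gene, to 1.08 for Ndufa3, 1.09 for Cyc1, 1.12 for Cox4i1 and 1.18 for Atp5g1.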

Other observations

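Proteasome subunits, taken by their symbols as a comparison list, were mostly above the other times at 4 h. There 32 of 40 probe sets were above, with a median of 0.11, while complex IV had 3 of 13 above. Over all probe sets 48.2% were above at 4 h, with a median of -0.01. Not all of the proteasome list is bright, since Psmb8 read 140, 87.7, 144 and 105 units at 1, 2, 4 and 6 h. The import machinery of the mitochondrion (18 probe sets) had medians of -0.01, 0.03, 0.09 and 0.03 at 1, 2, 4 and 6 h. The cytosolic ribosome list (33 probe sets) had 0.03, 0.03, -0.01 and -0.08. Its symbol pattern also takes in the S6 kinases Rps6kb2 and Rps6kc1, and without them the 31 probe sets had 0.03, 0.03, -0.02 and -0.08. None of these was tested.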
